A study of Schmidtea mediterranea with 177 samples.

Results

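The mid-body transcripts of planarian muscle described here are 60 transcripts that were found in more muscle cells of the middle of the animal than of either end. They were chosen by a rule on read counts. A cell was taken to express a transcript when it held more than 2 of its reads. The share of muscle cells expressing it was taken in the mid-body (regions 4 to 7), in the anterior regions 1 to 3 and in the posterior regions 8 to 10, and transcripts were ranked by the mid-body share minus the larger end share. Both end shares had to be at most 20%. Of 26560 transcripts in the table, 20165 met this limit once 5 known patterning genes had been set aside, 4178 of these had a larger share in the mid-body than at both ends, and the first 60 are the members. Each muscle share below is therefore a description of how the members were picked, and only the non-muscle cells were not used by the rule.

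The cells came from *Schmidtea mediterranea* flatworms of the asexual CIW4 strain, which had been starved for days before they were cut, with no other treatment named. The study cut animals across the anteroposterior (AP) axis into 10 slices, region 1 at the head and region 10 at the tail, kept the midline, and discarded the pharynx, the feeding tube that lies in regions 5 and 6. Non-dividing cells were sorted one by one, and their cDNA was screened by PCR for muscle markers before sequencing. The authors labelled 115 cells as muscle, 54 of them from the mid-body, 23 anterior and 38 posterior, and 62 as non-muscle, 29 of them from the mid-body, 14 anterior and 19 posterior. Region 2 gave no non-muscle cell, and no source names the animal, plate or day of a cell, so the cells of a region were treated as 1 sample.

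Planarian body-wall muscle does more than contract. Its cells express secreted Wnt ligands and inhibitors, Frizzled receptors and FGF receptor-like proteins in restricted domains along the body, and these domains give neighbouring cells their position during regeneration and normal cell turnover. Genes with a known part in the middle of the body include *ndl-3*, an FGF receptor-like gene, *wntP-2*, a Wnt ligand gene, and *ptk7*, which encodes a kinase-like Wnt co-receptor.

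The muscle label had been given from principal components and *troponin* in these same cells, so the 12 muscle markers at the muscle end of the first component, among them collagen, calponin, troponin I and myosin heavy chain, describe the classes and do not test them. Muscle cells had a median of 12 of the 12 in the mid-body, in anterior and in posterior regions, against medians of 2, 1 and 2 in non-muscle cells of the same zones. Reads per muscle cell had medians of 228481 in the mid-body, 411661 in anterior and 271223 in posterior regions. Transcripts expressed per muscle cell averaged 3042 in the mid-body, 2862 in anterior and 3107 in posterior regions. By region the mean was lowest in regions 2, 7 and 3, at 2039, 2274 and 2289 transcripts per muscle cell, and region 10 was the most deeply sequenced, with a median of 1238250 reads. Of all pairs of cells, 0 had identical counts.

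Only 4 of the 60 members carry a gene name in the study's supplement, each from the best human protein match, and the other members are known here by contig alone. For short, dd_3832 stands for dd_Smed_v4_3832_0_1, and likewise for the rest. The 4 are dd_11372, matched to EYA1, dd_12549, matched to KIRREL, dd_6773, matched to UBE2D1, and dd_12318, matched to RBBP6. In other animals, EYA proteins are transcriptional coactivators and phosphatases that work with homeodomain partners, and KIRREL proteins are immunoglobulin-domain adhesion proteins whose fly relative takes part in myoblast fusion. UBE2D1 is an E2 ubiquitin-conjugating enzyme in human, and RBBP6 is a RING-type ubiquitin ligase that binds the retinoblastoma protein. The supplement gives pharynx as the in situ hybridization pattern of *EYA1* and *KIRREL*, and an unclear pattern for *UBE2D1* and *RBBP6*. None of the 60 is among the 44 muscle regionally expressed genes (mRGs) of the study, of which 5 had been set aside by the rule. The 44 are few among the 26560 transcripts, so this absence says little about the members.

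The PCR primers of the study for *EYA1* and *KIRREL*, the named members whose detection was most restricted to the mid-body, are printed because they tie each name to a stretch of its transcript. All are written 5′ to 3′, with an outer and an inner forward primer and a single reverse primer.
EYA1 outer forward: tagttcagccgcaactgca
EYA1 inner forward: tcaaccgaatccctcctca
EYA1 reverse: cctttgccagtgcgggta
KIRREL outer forward: tcagtcggttgcactgca
KIRREL inner forward: tcaccagtgtacaaaaggaca
KIRREL reverse: acgaaggactggttggcag

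As a group, the members were found in a modest share of mid-body muscle cells and in few cells of the ends. Their share of expressing muscle cells had a median of 29.6% in the mid-body, with a lowest value of 14.8% and a highest of 40.7%, against medians of 8.70% in anterior and 13.2% in posterior cells. Over the 13570 transcripts tested in muscle the medians were 14.8% in the mid-body, 13.0% in anterior and 15.8% in posterior cells. By construction, 60 of 60 members were more widely expressed in the mid-body than at both ends, which 33.3% of all transcripts tested in muscle also were. The difference of shares was 16.5 percentage points at the median and ran between 14.6 and 28.4 points. Among all transcripts tested, 1.61% showed a difference as large as that of the last member. Counts per 1000000 reads (cpm), calculated on the summed reads of a zone, were higher in the mid-body than at the ends for 60 of 60 members as well, against 49.9% of the transcripts tested. Exact binomial 95% intervals (Clopper-Pearson) of the mid-body and anterior shares were apart for 2 members and those of the mid-body and posterior shares for 2 members, and no member had both apart. These intervals cover counting error only, since the libraries carry no molecular identifiers and the spread between animals was not measured.

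**Figure D1:**
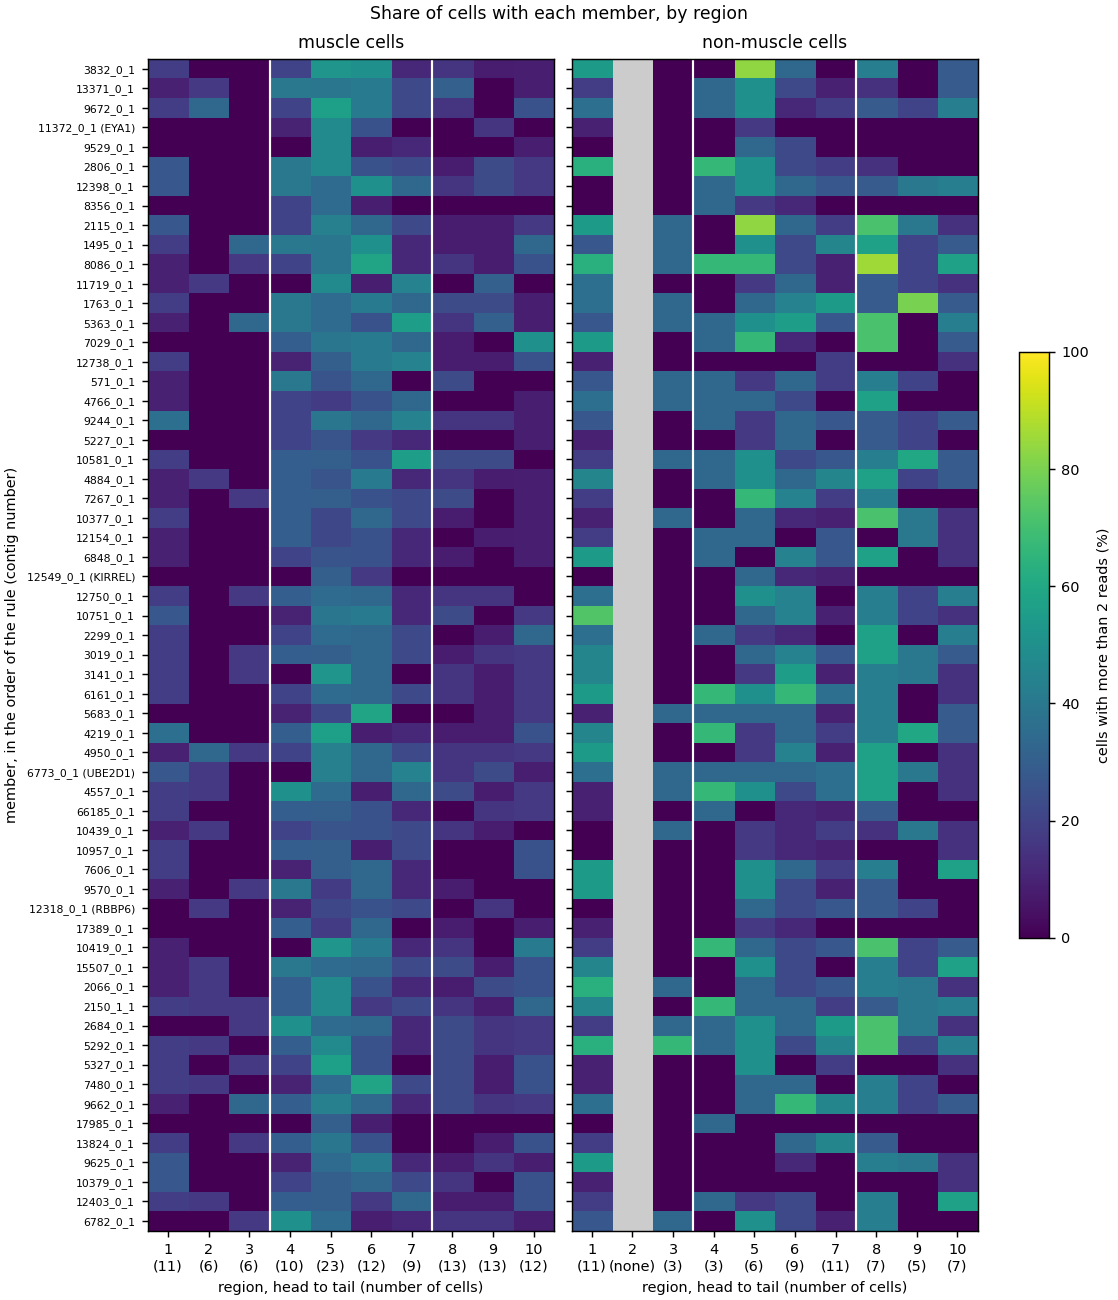
Share of cells with more than 2 reads of each of the 60 members (rows, in the order of the rule, contig numbers at the left) in regions 1 to 10 (columns, with the number of cells), for muscle cells at the left and non-muscle cells at the right. White lines bound the mid-body, grey marks region 2 without non-muscle cells. In muscle the light cells lie in regions 4 to 7, mostly in region 5, where 29 members had their highest mid-body share. In non-muscle cells regions 1 and 8 hold light cells as well.

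Within the mid-body the members were found most widely in region 5. The highest of the 4 mid-body shares lay in region 5 for 29 members, in region 6 for 17, in region 4 for 7 and in region 7 for 7. For 59 of the 60 this was also the highest share of all 10 regions. Each mid-body region exceeded each end region for 11 members, and 46 members were found in all 4 mid-body regions. The mean share over the members was 23.8% in region 4, 36.1% in region 5, 30.1% in region 6 and 18.3% in region 7. Over all transcripts tested in muscle it had the same order, at 17.5%, 25.4%, 23.4% and 16.6%. At the ends it was 13.6%, 4.72% and 5% in regions 1, 2 and 3, and 11.3%, 8.97% and 14.9% in regions 8, 9 and 10. All mid-body regions thus lay above all end regions, as the choice of the members favours. In each of regions 2 and 3, 45 of the 60 members were found in no muscle cell. These regions had 6 muscle cells each and few transcripts per cell. Region 7, also with few transcripts per cell, had 10 members in no cell of 9, but it belongs to the zone that the rule favoured. The part of cell number and library richness in these counts was not tested.

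A cell of the mid-body expressed a median of 18 members, with a lowest count of 3 and a highest of 34, against a median of 5 in anterior cells (1 to 13) and of 7 in posterior cells (0 to 14). The count followed the richness of the library: across the 54 mid-body muscle cells, many of which share a region, members per cell had a Spearman rho of 0.858 with transcripts per cell and of 0.705 with reads per cell. Per 1000 expressed transcripts, the members numbered 5.93, 6.16, 5.6 and 4.84 in regions 4, 5, 6 and 7. The same ratio was 2.26, 1.39 and 1.31 in regions 1, 2 and 3, and 2.28, 2.20 and 2.25 in regions 8, 9 and 10. With the reads of every cell drawn down to 50000, a depth that 5 muscle cells did not reach, the pooled ratio was 6.29 in mid-body, 2.02 in anterior and 2.41 in posterior muscle cells. Without thinning it was 5.83, 1.90 and 2.24. The choice of the members on these cells fixes the direction of both ratios, and thinned cells still held 2188 transcripts in mid-body, 2023 in anterior and 1974 in posterior muscle.

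**Figure D2:**
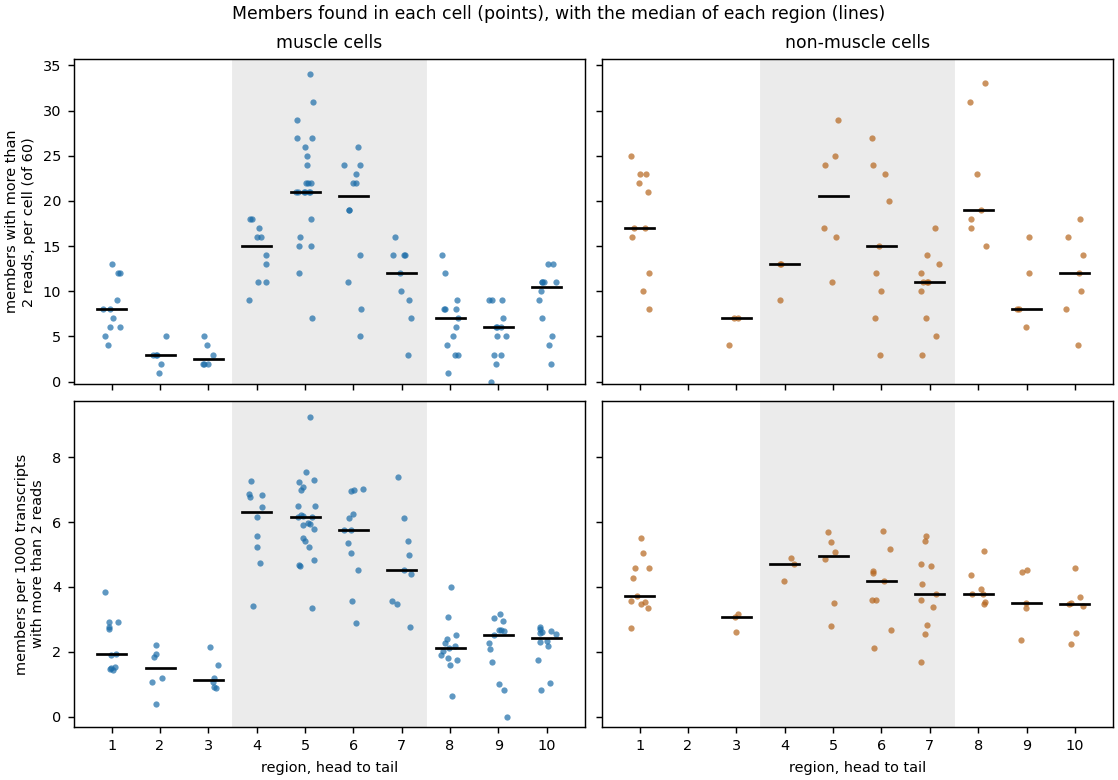
Members with more than 2 reads in each cell (upper panels, of 60) and the same per 1000 expressed transcripts of that cell (lower panels), by region, for muscle cells at the left and non-muscle cells at the right. Points are cells, lines are medians of a region, and the mid-body is shaded. Medians of muscle cells are higher in each of regions 4 to 7 than in any end region, with overlap of single cells (3 to 34 members against 0 to 14), at pooled ratios of 5.83 against 1.90 and 2.24 per 1000. In non-muscle cells the ratios are 4.20 against 3.95 and 3.79.

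The first 10 members by the rule fell into 2 kinds. Of these 10, 7 were found in at least 18 of the 54 mid-body cells but also in 6 to 10 of the 61 end cells, and 3 were found in 11 to 15 mid-body cells and in at most 2 end cells. The first member, dd_3832, belonged to the broader kind. It was expressed in 21 of 54 mid-body cells (38.9%), against 2 of 23 anterior (8.70%) and 4 of 38 posterior cells (10.5%). By region it was found in 20%, 52.2%, 50.0% and 11.1% of the cells of regions 4 to 7, so that regions 5 and 6 carried it and region 7 lay within the range of the ends. Region 1 had it in 18.2% of cells, regions 2 and 3 in none, and regions 8, 9 and 10 in 15.4%, 7.69% and 8.33%. Its level on summed reads was 132 cpm in mid-body, 11.7 cpm in anterior and 31.9 cpm in posterior muscle.

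The next broad members had similar shares and different regions. Mid-body, anterior and posterior shares were 37.0%, 8.70% and 13.2% for dd_13371. They were 40.7%, 17.4% and 13.2% for dd_9672, which was found in 56.5% of region 5 cells. The shares of dd_2806 were 37.0%, 13.0% and 15.8%. Those of dd_12398 were 38.9%, 13.0% and 18.4%, and this member peaked in region 6, at 50.0% of cells, instead of region 5. For dd_2115 they were 33.3%, 13.0% and 10.5%, and for dd_1495 37.0%, 17.4% and 15.8%. The levels did not always follow the shares. Summed reads of dd_1495 gave 27.8 cpm in the mid-body and 28.1 cpm in anterior muscle, and those of dd_9672 gave 57.2 and 55.8 cpm, although both were found in more than 2 times as many mid-body as anterior cells by share.

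The restricted kind was led by *EYA1*. Its transcript was expressed in 15 of 54 mid-body muscle cells (27.8%, interval 16.5% to 41.6%), against 0 of 23 anterior cells and 2 of 38 posterior cells (5.26%, interval 0.644% to 17.7%). A count of 0 in 23 cells allows a share of up to 13.0%, by the limit of 3 cells. Region 5 held 11 of the 15 cells, out of 23 examined, region 6 held 3 of 12, region 4 held 1 of 10 and region 7 none of 9. Both posterior cells came from region 9. In the 15 mid-body cells the level ran between 33.7 and 1095.5 cpm, with a median of 333 cpm, and in the 2 posterior cells it was 49.3 and 467 cpm. The ranges of single expressing cells overlapped, and the zones differed in how many cells expressed the transcript. On summed reads this came to 224 cpm in mid-body and 2.23 cpm in end muscle, or 0.252 cpm in end muscle without 1 region 9 cell.

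*KIRREL* was the only named member with no read at all in end muscle. It was expressed in 9 of 54 mid-body cells (16.7%, interval 7.92% to 29.3%), 7 of them from region 5 and 2 from region 6, against 0 of 23 anterior and 0 of 38 posterior cells. The 61 end cells without it allow a share of up to 4.92%. Its summed reads gave 107 cpm in the mid-body, against a limit of 0.0941 cpm that 3 reads over all end cells would give. The ratio of the mid-body level to this limit was 1140. It is not a lower bound on the difference in level, because reads of the same cell are not independent. Up to 4.92% of end cells could still express the transcript, and the choice of the members favours the contrast. A single region 5 cell supplied 45.0% of these mid-body reads, and without it the mid-body level was 61.5 cpm. Regions 4 and 7 had no cell with *KIRREL*, so that in muscle it was found only in the regions from which the pharynx had been cut. Whether pharyngeal muscle left on the slices contributed to the *EYA1* and *KIRREL* cells was not tested. The supplement has 2 more transcripts with a pharynx pattern. Neither was restricted in this way. *PCGF2*, a Polycomb group gene, was expressed in 22.2% of mid-body, 26.1% of anterior and 15.8% of posterior muscle cells, and dd_2749 in 40.7%, 34.8% and 31.6%.

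The unnamed member dd_8356 was found in a few strongly expressing cells. It was expressed in 11 of 54 mid-body cells, 8 of them from region 5, 2 from region 4 and 1 from region 6, and in 0 of 61 end cells. It had 10595 reads in mid-body muscle (664 cpm) and 4 reads in end muscle (0.126 cpm). The single region 6 cell had 11652 cpm and 55.4% of the mid-body reads. Without that cell the mid-body level was 306 cpm, and the median of the 11 expressing cells was 769 cpm. The next member, dd_9529, was expressed in 13 of 54 mid-body cells, 11 of them from region 5, against 0 of 23 anterior and 1 of 38 posterior cells. That single region 10 cell had 1386 cpm, above the highest mid-body cell at 1268 cpm, and it brought the end level to 92.1 cpm, against 218 cpm in the mid-body. Without that cell the end level was 0.202 cpm. Another unnamed member, dd_17985, had 755 reads in 8 mid-body cells and no read in end muscle.

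The remaining named members were less restricted. *RBBP6* was expressed in 11 of 54 mid-body cells (20.4%), against 1 of 23 anterior (4.35%) and 2 of 38 posterior cells (5.26%), and its summed reads gave 60.8 cpm in the mid-body and 2.79 cpm at the ends. *UBE2D1* was expressed in 18 of 54 mid-body cells (33.3%), against 4 of 23 anterior (17.4%) and 6 of 38 posterior cells (15.8%), with no cell in region 4. Its level did not follow its share, at 38.3 cpm in the mid-body, 110 cpm in anterior and 11.5 cpm in posterior muscle. The anterior level rested mainly on a single region 2 cell, with 763 reads, against 141 in region 1 and 0 in region 3. At the end of the list, dd_10379 and dd_12403 were each expressed in 15 mid-body, 3 anterior and 5 posterior cells, and dd_6782 in 15, 1 and 5, with a difference of 14.6 points each. Just outside it, dd_12158 was expressed in 12, 1 and 3 cells, at 14.3 points, and dd_13872 and dd_7166 each in 10, 1 and 1 cells, at 14.2 points. The step at the border was thus far smaller than the counting error of any of these shares.

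Which transcripts are members depended strongly on the cells. Leaving out region 5 and ranking again kept 24 of the 60, leaving out region 1 kept 28, and leaving out region 10 or region 9 kept 33 or 38. Leaving out one of the other 6 regions kept between 40 and 48. Thinning each cell to 50000 reads kept 20, and counting a single read as expression kept 26. Only 3 members stayed whichever region was left out. Under a threshold of 0 or of 5 reads, thinning and equal weights for the regions, 9 members were kept throughout: dd_3832, dd_9672, *EYA1*, dd_8356, dd_8086, dd_11719, dd_4766, dd_10581 and dd_5683. The member dd_3832 alone was in both sets.

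Some of the restricted members were found in the same cells. A set of 8 members was expressed in at most 2 end muscle cells each, chosen here after their values were seen: *EYA1*, *KIRREL*, dd_9529, dd_8356, dd_17985, dd_4766, dd_5227 and dd_17389. At least 3 of the 8 were expressed in 14 of 54 mid-body muscle cells and in 0 of 61 end muscle cells, a contrast that their choice favours, while 38 mid-body cells expressed at least 1. Of the 14 cells, 11 came from region 5, out of 23 cells, 2 from region 6, out of 12, 1 from region 4, out of 10, and 0 from region 7, out of 9. Region 5 gave the most cells to the shares that chose the members, so this too is a description. In region 5, *EYA1* was expressed in 7 of 10 cells of the lowest cell numbers and in 4 of 11 of the highest, dd_9529 in 6 and 5, and dd_8356 in 4 and 4. In the middle range of cell numbers, each was expressed in 0 of 2 region 5 cells. The rule used these same cells, and the labels do not state what the ranges mean. The part of the ranges in these counts was not tested.

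**Figure D3:**
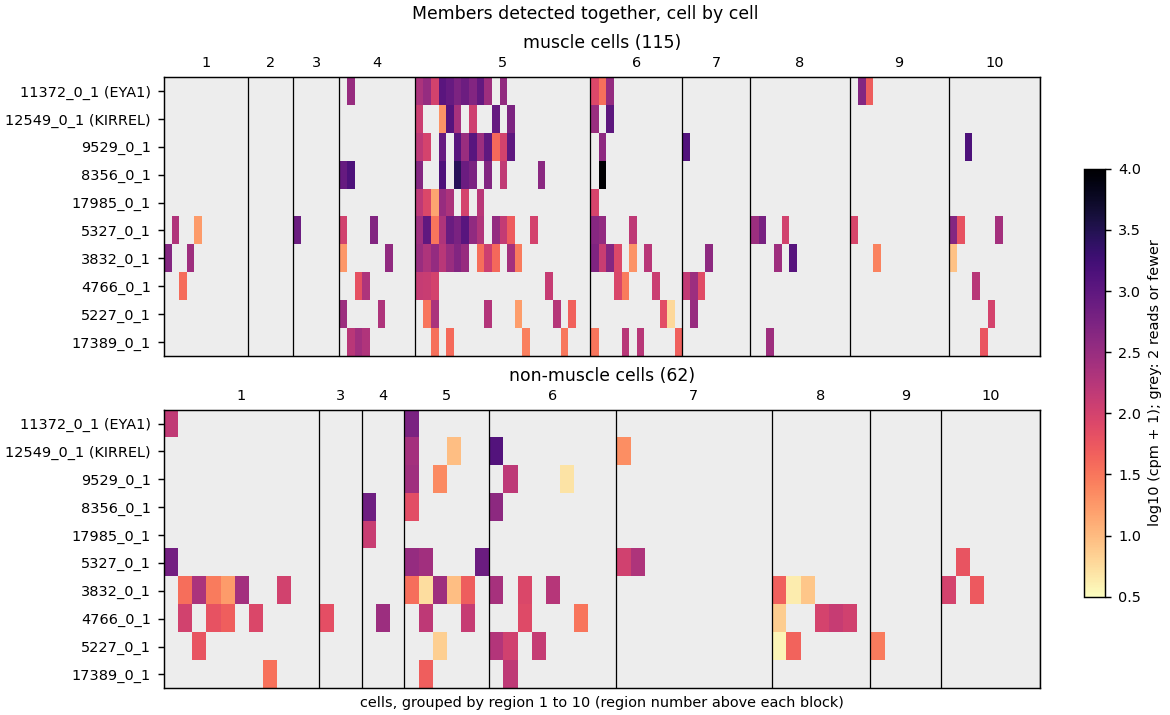
Level of the 8 restricted members and of dd_5327 and dd_3832 (rows) in each muscle cell (upper panel, 115 cells) and each non-muscle cell (lower panel, 62 cells), in columns grouped by region 1 to 10 and sorted within a region by the number of these transcripts expressed. Colour is log10 of cpm + 1, and grey is 2 reads or fewer. A block of region 5 muscle cells carries *EYA1*, dd_9529, dd_8356, dd_5327 and dd_3832 together, and 14 mid-body muscle cells carry at least 3 of the 8.

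Pairs of members expressed in the same mid-body muscle cells were led by *EYA1*. It was found together with dd_5327 in 12 cells, out of 21 that had either (57.1%). The members dd_3832 and dd_5327 shared 14 of 25 cells (56.0%), and *EYA1* and dd_9529 shared 10 of 18 (55.6%). The median over all 1770 pairs of members was 19.2%. Of the 9 cells with *KIRREL*, 8 also had dd_5327, 8 had dd_3832 and 7 had *EYA1*. Among the 45 mid-body muscle cells without *KIRREL*, 10, 13 and 8 had them. All 8 cells with dd_17985 had *EYA1*. The restricted members dd_4766 and dd_5227 did not share this pattern, with 3 of the 15 *EYA1* cells each, and with 1 and 0 of the 9 *KIRREL* cells. The partner of these pairs, dd_5327, was a broader member, with 18 of 54 mid-body, 3 of 23 anterior and 7 of 38 posterior cells, and within the mid-body it was found in 56.5% of region 5 cells and in no region 7 cell. Mid-body muscle cells with *EYA1* expressed 3755 transcripts on average, against 2767 in those without it. For *KIRREL* the means were 3643 and 2921. Members per cell followed transcripts per cell, as given above, and the part of library richness in these overlaps was not tested.

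In the non-muscle cells of the same regions the order of the members' median zone shares changed with thinning, while their median difference stayed negative. Their share of expressing non-muscle cells had a median of 24.1% in the mid-body, 28.6% in anterior and 26.3% in posterior cells. The posterior non-muscle cells were the deepest, with a median of 680843 reads, against 259263 in the mid-body and 245512 in anterior cells. At 50000 reads per cell the order of these medians turned, to 17.2% in the mid-body, 14.3% in anterior and 15.8% in posterior cells. Medians over all transcripts were not taken at this depth. In the mid-body, 17 of 60 members (28.3%) had a larger share than at both ends, against 18.5% of all transcripts tested in non-muscle cells. Without region 7 the count was 26. The median difference was -5.12 points for the members, or -0.544 points at 50000 reads, and -8.89 points for all transcripts tested. Per 1000 expressed transcripts, members numbered 4.20 in mid-body, 3.95 in anterior and 3.79 in posterior non-muscle cells, and 4.48, 3.71 and 3.91 after thinning. By region the ratio was 4.62, 4.56, 4.13 and 3.85 in regions 4 to 7, against 4.09 and 2.92 in regions 1 and 3 and 4.06, 3.66 and 3.44 in regions 8 to 10, so that the zones overlapped. Of the 60 members, 16 were expressed in a larger share of non-muscle than of muscle cells of the mid-body, a count also without its share over all transcripts.

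**Figure D4:**
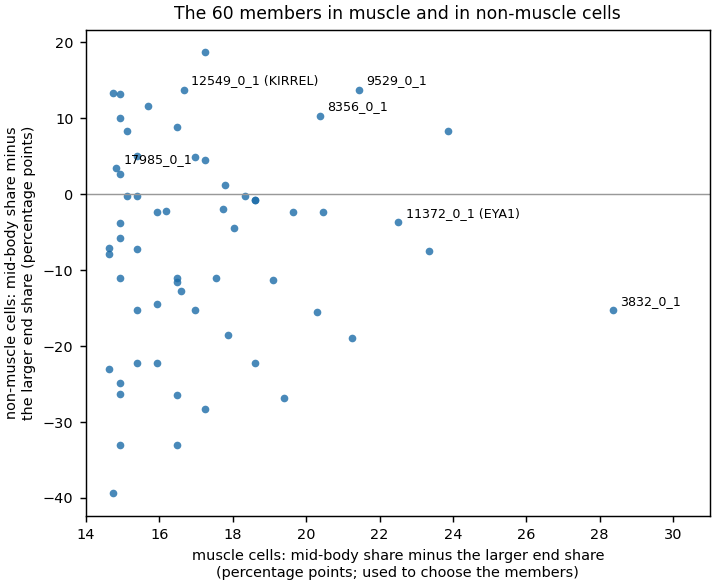
Mid-body share minus the larger end share, in percentage points, for each of the 60 members, in muscle cells (horizontal axis, used to choose the members) and in non-muscle cells (vertical axis). All points lie at 14.6 points or more on the horizontal axis by construction. On the vertical axis 17 members lie above 0, among them *KIRREL*, dd_9529 and dd_8356, and the median is -5.12 points.

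Counts summed over the non-muscle cells of each region, 4 mid-body and 5 end sums, were compared with the quasi-likelihood test of edgeR, in which more cells expressing a transcript and more RNA per cell cannot be told apart. After Benjamini-Hochberg adjustment at 0.05, edgeR called 0 of 57 members tested higher and 0 lower in mid-body non-muscle cells, and of all 13349 transcripts 0% in either direction. At an unadjusted p under 0.05 edgeR gave 9 of the 57 members, 5 higher and 4 lower, against 6.32% of all transcripts in either direction and 1.99% in the higher direction. DESeq2 and limma also called 0 members, with 6 and 5 of the 57 at an unadjusted p under 0.05. The share over all transcripts is not set beside these counts, so they are not read as an excess among the members. The log2 ratio of mid-body over ends was above 0 for 33 of 57 members, against 46.7% of all transcripts, with a median of 0.59 against -0.12. The median over all transcripts moved to 0.23 when library sizes alone were used for scaling, and that of the members to 0.73. The median of the members was 0.08 without region 6 and 0.20 without region 5, against -0.29 and -0.38 for all transcripts. With the range of cell numbers as a covariate it was 1.07, against 0.20 for all transcripts. In that fit 42 of 57 members were above 0, against 55.3% of all transcripts. The design could detect little: in simulated sums of this comparison over 13334 transcripts, edgeR recovered 2 of 100 changes of 4 on the log2 scale and 0 of 100 changes of 2. The lack of calls thus does not show that the members were even along the axis of non-muscle cells.

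Members that leaned to the mid-body in non-muscle cells included several of the restricted kind. The member dd_8356 was expressed in 3 of 29 mid-body non-muscle cells, 1 each in regions 4, 5 and 6, against 0 of 14 anterior and 0 of 19 posterior cells. It had 95 reads in the mid-body and 1 read at the ends, a ratio in cpm of 192. This ratio rests on few cells, whose reads are not independent, so no interval is given for it. Its log2 ratio in edgeR, which depends on the prior count at such low end counts, was 8.02 ± 2.40 (SE, 9 sums, adjusted p = 0.616). The SE here and below is approximate: the absolute log2 ratio divided by the square root of the F statistic, not a value given by the fit. *KIRREL* was expressed in 4 of 29 mid-body cells, 2 in region 5 and 1 each in regions 6 and 7, against 0 of 14 anterior and 0 of 19 posterior cells. It had 147 reads in the mid-body and 1 at the ends, with a log2 ratio of 6.49 ± 2.20 in edgeR (SE, adjusted p = 0.616). The member dd_17389 had 142 reads in the mid-body and 3 at the ends, from 2 mid-body cells and 1 anterior cell, with a log2 ratio of 5.19 ± 2.25 in edgeR (SE, adjusted p = 0.680). In each of these, single cells of few regions carried the reads, and none passed the threshold.

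Other restricted members were spread otherwise. *EYA1* was expressed in 1 of 29 mid-body, 1 of 14 anterior and 0 of 19 posterior non-muscle cells, dd_4766 in 5 of 29 mid-body and 9 of 33 end cells, and dd_5227 in 4 of 29 and 4 of 33. The 3 members with the lowest p among those lower in mid-body non-muscle cells were dd_10377, dd_9625 and dd_1763. Of these, dd_9625 was expressed in 1 of 29 mid-body, 6 of 14 anterior and 6 of 19 posterior non-muscle cells, with a log2 ratio of -5.45 ± 2.02 in edgeR (SE, adjusted p = 0.622), while in muscle it was expressed in 15 of 54 mid-body, 3 of 23 anterior and 4 of 38 posterior cells. The ratio was -4.57 ± 1.66 for dd_10377 (adjusted p = 0.616) and -3.99 ± 1.76 for dd_1763 (adjusted p = 0.692) in edgeR. Whether muscle and non-muscle cells differ in the direction of these members was not tested.

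Transcripts of other tissues were also read in muscle and differed along the axis. They are listed by in situ pattern in the supplement and were chosen partly on these cells. In muscle cells, 12 gut transcripts summed to 3054 cpm in the mid-body, with a range of 973 to 3882.8 cpm over its regions, against 954 cpm (510.5 to 1553) in anterior and 1769 cpm (1063 to 5768) in posterior regions. A set of 46 transcripts of the central nervous system summed to 4705 cpm (2431 to 5926) in the mid-body, 2802 cpm (2068 to 3583) in anterior and 2965 cpm (1423 to 3423) in posterior muscle. A muscle cell expressed a median of 2 gut transcripts in the mid-body, against 3 in anterior and 3 in posterior regions, the other way from the sums, and of the 12, 0 were missing from all 54 mid-body cells, 2 from all 23 anterior and 2 from all 38 posterior ones. Of an epidermis list, 15 transcripts summed to 624 cpm in mid-body, 1070 cpm in anterior and 795 cpm in posterior muscle. The epidermal side of the first principal component, 12 transcripts, summed to 133, 98.7 and 196 cpm in mid-body, anterior and posterior muscle, against 6056, 8434 and 6683 cpm in non-muscle cells. Their part in the shares of the members was not tested. None of the members is in the gut or nervous system list, but these lists are short against the 26560 transcripts, so this says little.

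For comparison, 8 trunk or patterning genes of the study were read in the same way, of which 5 had been set aside from the list. Some of them were known before the study, and the list as used here was drawn up with these cells in view, so it is not independent evidence. The gene *ptk7* was expressed in 41 of 54 mid-body muscle cells (75.9%), against 7 of 23 anterior (30.4%) and 20 of 38 posterior cells (52.6%). *ndl-3* was expressed in 48.1%, 30.4% and 2.63% of the same groups, and *fz4-3*, a Frizzled receptor gene, in 59.3%, 30.4% and 50.0%. For *sFRP-2*, a secreted Frizzled-related inhibitor gene, the shares were 33.3%, 26.1% and 26.3%. The other 4 were higher at an end: *wntP-2* at 33.3% in the mid-body and 65.8% in posterior cells, *wntA* at 75.9% and 84.2%, *fz4-4* at 74.1% against 78.3% in anterior cells, and *wnt2* at 9.26% against 21.7% in anterior cells. Each of the 8 was found in more than 20% of the muscle cells of an end, which the rule for the members did not allow. In the non-muscle fit, edgeR tested 6 of the 8 and called 0, and 0 of them had an unadjusted p under 0.05.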

How the data were processed

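Single-cell cDNA libraries (SmartSeq2, Nextera XT) of 177 sorted cells were sequenced by the authors, trimmed with cutadapt, mapped to the dd_Smed_v4 transcriptome with Bowtie 1, summing each isotig. Its release number is not given in the methods or labels. The submitters' processing notes also name CASAVA 1.7.0. Reads of prominent mitochondrial and ribosomal contigs had been discarded. The deposited counts are raw reads per transcript, with no normalization by the authors. Their tables of anterior against posterior comparisons (SCDE log2 ratios with bounds and Z-scores) were not used.

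Groups followed the labels. Expression in a cell meant more than 2 reads, and cpm used the total of a cell or of summed cells. Non-muscle counts were summed per region, giving 9 sums, and transcripts expressed in 3 or more of these cells were tested with edgeR 4.0.16 (robust quasi-likelihood, TMM, R 4.3.3), with Benjamini-Hochberg adjusted p-values. Alternatives used DESeq2 1.42.0, limma 3.58.1 on log2(cpm + 1), other scalings and filters, thinning and left-out regions. Tests were tried on simulated data: edgeR made 3 calls, 1 false, and DESeq2 made 85, 63 false (74.1%), so that DESeq2 calls do not hold their nominal rate here. Cells of a region are not known to come from separate animals, and p-values measure the spread between regions. Other steps used Python 3.11.15 with pandas 2.3.3, scipy 1.17.1 and matplotlib 3.10.9.

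Members named with values were the first 10 by the rule, the 4 annotated ones, the 5 with the highest mid-body cpm (a rule for naming only), the 3 with the lowest non-muscle p in each direction, the last 3, the 3 transcripts just outside, the 3 most co-expressed pairs (both in at least 5 cells) and 8 trunk genes. Others were named after their values were seen. The members and lists were chosen with earlier results of these data known. Cpm are not divided by transcript length and are not compared between transcripts.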

Additional observations from a re-analysis of the deposited data

Results flagged for a closer look

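Shares of the members described above and their summaries were examined in 86 groups of region values, each from the mid-body or the end regions of 1 cell class. A rule flagged 10 groups in which the gap of 1 region to the next was large against the range of the group. Its nominal rate of 1 group in 20 assumes continuous values. Shares of few cells often tie, and then a single differing region is flagged however small the gap, so the 10 are not read against that rate. In muscle, dd_13371 was found in 22.2% of region 7 cells, below the other mid-body regions. *EYA1* was found in 15.4% of region 9 cells and dd_9529 in 8.33% of region 10 cells, while every other end region had none. In mid-body non-muscle cells, *EYA1* was found in 16.7% of region 5 cells and dd_9625 in 11.1% of region 6 cells, with none in the other regions. *UBE2D1* was at 36.4% in region 7, where the other 3 mid-body regions were at 33.3% each. In end non-muscle cells, *EYA1* and dd_17389 were each found in 9.09% of region 1 cells and in no other end region. Region 1 also stood high for dd_2806, at 63.6%, and region 9 for dd_1763, at 80%. Each of these shares rests on 5 to 13 cells, and none was examined further.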

How the results depend on the processing

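In non-muscle cells, edgeR called 0 transcripts as reported, DESeq2 called 28, and edgeR without the filter on low counts called 105, with 0 members among them in each case. All other fits, including those that left out a region (0 to 0 calls) and that with the number block as covariate, called 0 transcripts and 0 members. The median share difference of the members was 16.5 points in muscle. Under all alternatives that were run it moved by less than 10.9 points, the SD of the median member share between mid-body regions. This limit is wide, so staying within it does not show that the difference is stable. When a region was left out, the median difference lay between 13.0 and 19.2 points, and 57 to 60 members kept a higher mid-body share. The choice of the members on these same cells favours both. In the lowest range of cell numbers (block A) alone the median difference was 14.7 points, and 51 members kept a higher mid-body share. The highest range (block C) has no anterior muscle cell, and there it was 25.7 points against posterior cells alone. The middle range (block B) was not run as an alternative. It has 2 mid-body muscle cells against 5 anterior and 17 posterior ones, with member medians of 0%, 0% and 17.6%. There, 23 members were higher in the mid-body than in posterior cells. Zone and range of cell numbers thus overlap only in part. In non-muscle cells the median difference of -5.12 points ranged between -9.20 and -2.36 points with a region left out, and was -0.544 points after thinning and 0 points in block A. The 17 members with a higher mid-body share there became 15 to 26 with a region left out, the most without region 7, and 28 in block A, where only anterior end cells exist. The share over all transcripts was not taken in these settings. The choice of members moved most. Of 60, the rule kept 26 at more than 0 reads, 35 at more than 5 reads, 20 after thinning, 38 with equal weights for regions, and 24 to 48 with a region left out. Without regions 2 and 3 together, an alternative added after seeing the data, it kept 35. No paired analysis was possible because 0 cell numbers are shared between regions. The number of cells limits the shares most in regions 3 and 4 of the non-muscle cells, with 3 cells each.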
